A study of Mus musculus with 11 samples.

Results

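Fatty acid oxidation and ketogenesis were followed through 35 genes of the mouse liver after paracetamol injury. The genes were chosen by name, as listed enzymes, carriers and regulators of beta-oxidation, omega-oxidation and ketone body formation, and each of the 35 symbols matched 1 of the 31053 gene rows in the files. They fall into 11 roles, of which ketone body formation holds a single gene, Bdh1.

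Hepatocytes take up fatty acids, activate them to acyl-CoA and burn them in mitochondria and peroxisomes. Long-chain acyl-CoA enters mitochondria through the carnitine shuttle, is shortened in repeated rounds of dehydrogenation, hydration, dehydrogenation and thiolysis, and yields acetyl-CoA that the fasting liver turns into ketone bodies. Very long chains are first shortened in peroxisomes, and a side route, omega-oxidation, starts with hydroxylation by Cyp4a enzymes. The nuclear receptor PPAR-alpha, encoded by Ppara, binds fatty acids and, together with the retinoid X receptor RXR, turns on many of these genes during fasting. Within the liver lobule, oxidative metabolism is classically assigned to the hepatocytes nearest the portal vein.

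Paracetamol (acetaminophen, APAP) in overdose kills hepatocytes around the central vein, and the study used it to follow regeneration in C57BL/6JCrl mice, male unless it states otherwise, that were fasted and injected intraperitoneally. RNA was mapped with Visium, an assay that captures polyadenylated RNA from tissue laid over an array of barcoded spots, and a spot is a small region that holds several cells. Of the 11 snap-frozen liver sections, 3 came from uninjured liver (0 h, numbered 2, 3 and 4) and 8 from injured liver. These were a pair, lettered A and B, from each of 24 h and 36 h, and 4 from 48 h, lettered A to D. The study's methods say that each time point was read in the liver of 1 mouse, so n counts sections, p-values measure how sections vary and not how mice vary, and mouse and time point cannot be told apart. Whether the 0 h mouse was fasted, and at which clock time each liver was taken, is not given in the sources used here. No batch is named in the labels. The labels also do not say what a section letter marks. That the sections of a time point share a mouse thus rests on the methods alone.

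Levels are unique molecular identifiers (UMIs) summed over the passing spots of a section and expressed per 1000000 of the section total after scaling by the trimmed mean of M-values (TMM), written CPM. Passing spots numbered 1490 to 3466 per section and held 31292663 to 67045372 UMIs. Pairs of sections within a group differed by 39.2 to 211 chi-square units for each gene, far more than sampling gives, so no library was a copy of another. The 8 hepatocyte markers (Alb, Ttr and apolipoproteins among them) together held 171723 to 181295 CPM at 0 h. They fell to between 94419 and 120654 CPM in the 8 injured sections, while 6 myofibroblast markers went from 45.4 to 58.2 CPM at 0 h to between 551 and 1288 at 48 h, 6 neutrophil markers from 3.17 to 9.07 to between 41.5 and 142 at 24 h, and 8 macrophage markers from 836 to 943 to between 1120 and 2067 at 48 h. In such section sums, fewer hepatocytes and less RNA per hepatocyte cannot be told apart.

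PPAR-alpha and RXR bind 2 copies of the element AGGTCA that follow each other with 1 base of any kind between them. That repeat was searched on both strands in the 250 bases before the RefSeq start (build GRCm38.p6, the mm10 build of the files) of the 29 members that had an entry. Crat, Acaa2, Cyp4a10, Cyp4a14, Vnn1 and Decr1 had none. An exact copy stood before no member and before 0.0407% of 27025 genes. With up to 1 of the 12 fixed letters mismatched, Fabp1 alone of the members held a match, against 0.566% of all genes, and with up to 2 mismatches Creb3l3, Etfa and Acot4 joined it, 4 of 29 members against 3.72% of all genes. The single element AGGTCA stood before 7 of the 29 members and 15.8% of all genes. A match is a likeness of letters, not a binding site. The stretches that hold the matches are shown 5′ to 3′ on the gene's strand, with the match in capitals, and the promoters of Ehhadh and Acaa1b, which fell furthest of the peroxisomal members and held no match, are shown beside them.
Fabp1 (chr6:71199629-71199826, plus strand): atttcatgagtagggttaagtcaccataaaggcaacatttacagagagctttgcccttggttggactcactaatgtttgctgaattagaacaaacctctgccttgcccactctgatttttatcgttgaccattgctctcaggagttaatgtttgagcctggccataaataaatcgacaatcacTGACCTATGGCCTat
Creb3l3 (chr10:81092758-81092806, minus strand): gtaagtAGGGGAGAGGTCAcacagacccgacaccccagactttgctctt
Etfa (chr9:55512278-55512350, minus strand): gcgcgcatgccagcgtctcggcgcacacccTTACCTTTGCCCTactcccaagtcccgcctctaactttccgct
Acot4 (chr12:84038336-84038378, plus strand): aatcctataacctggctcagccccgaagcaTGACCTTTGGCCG
Ehhadh (chr16:21787835-21788084, minus strand): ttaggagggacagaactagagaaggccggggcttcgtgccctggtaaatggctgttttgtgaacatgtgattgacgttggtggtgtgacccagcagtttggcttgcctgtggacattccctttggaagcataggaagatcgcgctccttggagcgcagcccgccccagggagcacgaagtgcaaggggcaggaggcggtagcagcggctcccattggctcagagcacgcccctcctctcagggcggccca
Acaa1b (chr9:119157094-119157343, minus strand): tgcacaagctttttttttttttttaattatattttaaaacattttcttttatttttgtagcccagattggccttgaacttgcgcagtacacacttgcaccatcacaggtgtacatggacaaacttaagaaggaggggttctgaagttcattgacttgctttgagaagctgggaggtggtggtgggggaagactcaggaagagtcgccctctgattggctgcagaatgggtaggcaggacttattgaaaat
The Fabp1 match lay 67 to 55 bases before the start with 1 mismatch, and those of Etfa, Acot4 and Creb3l3 lay 77 to 65, 13 to 1 and 209 to 197 bases before it with 2 each. Of these 4 members, Fabp1 and Etfa were called lower than at 0 h at every time point and Creb3l3 at 24 h and 48 h. Acot4 did not pass the test at any time point. Whether matches and changes go together was not tested.

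The first question was how the module stood at each time after injury. At 24 h, 29 of the 35 members were lower than at 0 h and 0 were higher by edgeR's quasi-likelihood test with Benjamini-Hochberg adjustment over 14821 genes, whereas 41.7% of all genes tested were called, 18.6% lower and 23.1% higher. The members' median log2 fold change was -0.87, against 0.05 for all genes, and 14 members fell at least 2-fold. Also 0 members were higher at an unadjusted p under 0.05 or with DESeq2, which called 31 lower. At 36 h, 15 members were lower and 0 higher, against 12.4% and 16.8% of all genes (29.2% in either direction), with a median of -0.45 and 7 members at least 2-fold lower. Here the unadjusted p and DESeq2 both gave 17 lower and 0 higher. At 48 h, 32 members were lower and 0 higher, against 20.9% and 23.3% of all genes (44.2% in either direction), with a median of -0.94 and 16 members at least 2-fold lower. Both the unadjusted p and DESeq2 gave 32 lower and 0 higher at 48 h. Without section 24 h B the count at 24 h was 15, and at 36 h it was 7 without 0 h 2 or without 0 h 3 and 9 without 0 h 4 or without 36 h B.

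These directions are relative to the TMM scaling. Dividing by the total UMIs instead gave a median log2 fold change of all genes of 0.37, 0.49 and 0.54 at 24, 36 and 48 h, against 0.05, 0.05 and 0.01 under TMM, and dividing by the UMIs of the 8 hepatocyte markers, an alternative chosen after seeing the data, gave one of 0.83, 0.64 and 0.72. Members called lower under all 3 scalings numbered 9 at 24 h, 3 at 36 h and 14 at 48 h. At 24 h they were Slc27a2, Acsl1, Slc25a20, Decr2, Etfa, Etfdh, Ehhadh, Acaa1b and Acot1, at 36 h Etfdh, Ehhadh and Acot1, and at 48 h Ppara, Fabp1, Acsl1, Cpt2, Decr1, Decr2, Eci1, Eci2, Etfdh, Ehhadh, Acaa1b, Pex11a, Acot1 and Vnn1. Total UMIs called 16, 6 and 20 members lower at the 3 times and 0, 1 and 0 higher, the one being Acaa1a at 36 h. Hepatocyte-marker UMIs called 9, 3 and 14 lower and 5, 6 and 1 higher. The 5 higher at 24 h were Crat, Acadl, Acadvl, Etfb and Acaa1a, the 6 at 36 h Cpt1a, Acadl, Acadvl, Acads, Acaa1a and Acot4, and the 1 at 48 h Acadl. Relative to the hepatocyte markers, members were thus called in both directions. The shares of all genes called under total-UMI and hepatocyte-marker scaling are not given here, so these counts lack a baseline. The part of the cell type markers' own changes in the members' changes was not tested.

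**Figure D1:**
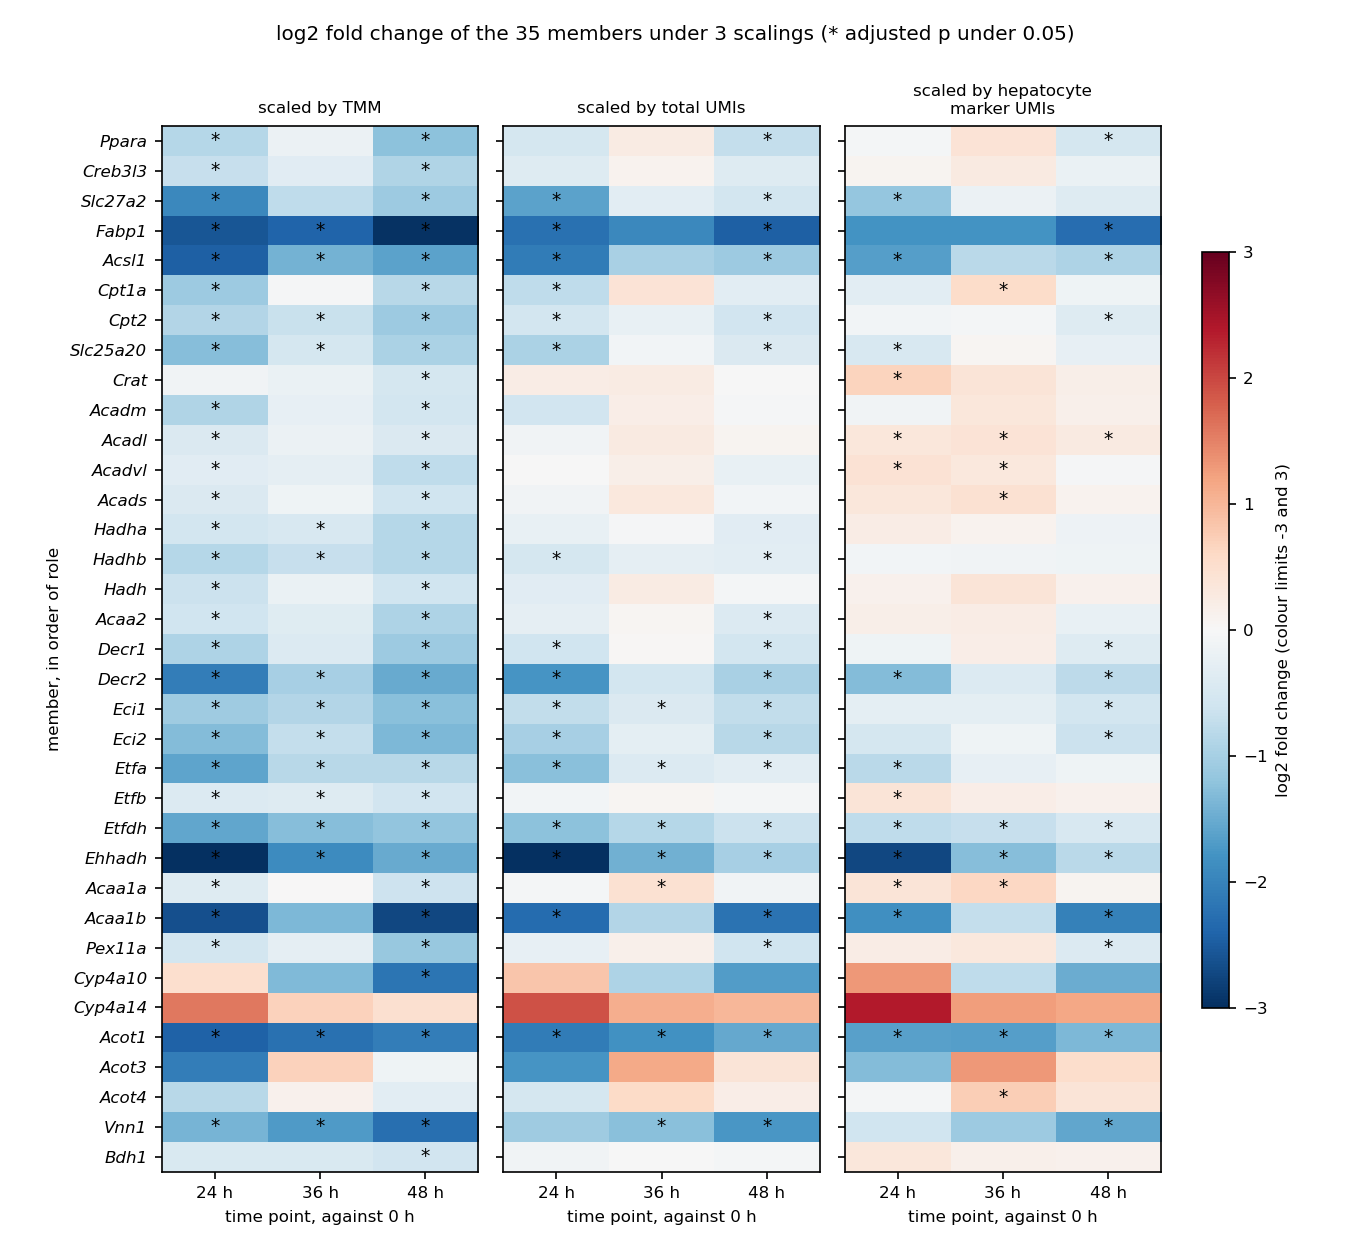
Log2 fold change against 0 h of the 35 members (vertical axis, in order of role) at 24, 36 and 48 h (horizontal axis) under 3 scalings, with colour from -3 to 3 and stars at an adjusted p under 0.05. Ehhadh, Etfdh and Acot1 stayed blue with a star in all 9 columns, whereas Acadl turned from pale blue under TMM to pale red with a star at all 3 times under hepatocyte-marker scaling.

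In the per-section values that follow, sections are given in the order 2, 3, 4 at 0 h, A, B at 24 h and 36 h, and A, B, C, D at 48 h, every adjusted p is from edgeR's quasi-likelihood test, the value after ± is the SE, and gene coordinates follow the GENCODE annotation of GRCm38. Of the regulators, Ppara (ENSMUSG00000022383, chr15:85734983-85802819) was read at low depth, with 5.74, 6.31 and 5.08 CPM at 0 h, 3.59 and 2.74 at 24 h, 4.61 and 5.48 at 36 h, then 2.74, 2.74, 1.87 and 2.36 at 48 h. Both 24 h sections and all 4 sections at 48 h lay below the 0 h sections, while those at 36 h overlapped them. The log2 fold change was -0.85 ± 0.21 (adjusted p 0.0089) at 24 h, -0.18 ± 0.21 (adjusted p 0.53) at 36 h and -1.24 ± 0.17 (adjusted p 2.94e-04) at 48 h. Under hepatocyte-marker scaling the 24 h value was -0.06 and not called. Creb3l3, which encodes the membrane-bound factor CREBH that acts with PPAR-alpha in fasting, measured 246, 295 and 312 CPM at 0 h, 175 and 174 at 24 h, 249 and 204 at 36 h, then 155, 144, 102 and 207 at 48 h. All sections at 24 h and 48 h lay below those at 0 h and 36 h A fell within them. The log2 fold change was -0.70 ± 0.24 (adjusted p 0.037) at 24 h and -0.90 ± 0.20 (adjusted p 0.0039) at 48 h under TMM, was called under neither of the other scalings, and turned to 0.07 at 24 h under hepatocyte-marker scaling.

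Of the 11 roles, uptake and activation had the lowest median log2 fold change at 24 h, at -2.44, and at 48 h, at -1.61. Fabp1 (ENSMUSG00000054422, chr6:71199827-71205023), the liver's fatty acid-binding protein, measured 19451, 20174 and 23347 CPM at 0 h, 5192 and 1852 at 24 h, 6467 and 1455 at 36 h, then 1785, 2599, 1070.5 and 5219.6 at 48 h. Every injured section lay far below the 0 h sections, yet sections of a time point differed by 4.44 times at 36 h and 4.88 times at 48 h. Its log2 fold change was -2.58 ± 0.81 (adjusted p 0.028) at 24 h, -2.41 ± 0.80 (adjusted p 0.047) at 36 h and -2.98 ± 0.63 (adjusted p 0.0041) at 48 h. Acsl1, the main long-chain acyl-CoA synthetase of hepatocytes, measured 601, 703 and 704 CPM at 0 h, 165 and 81.8 at 24 h, 316 and 187 at 36 h, then 227, 199.9, 119.7 and 328 at 48 h. It too was lower in all 8 injured sections, lowest in 24 h B, with log2 fold changes of -2.44 ± 0.44 (adjusted p 0.0018), -1.41 ± 0.42 (adjusted p 0.0303) and -1.61 ± 0.33 (adjusted p 0.0033). Slc27a2, a fatty acid transporter and very long-chain acyl-CoA synthetase, measured 542, 557 and 458 CPM at 0 h, 135 and 136 at 24 h, 391 and 217 at 36 h, then 235, 259, 175 and 314 at 48 h. The 24 h sections were lowest and nearly equal, and no injured section reached the 0 h range. Slc27a2 was called at 24 h, at -1.94 ± 0.28 (adjusted p 4.59e-04), and at 48 h, at -1.08 ± 0.22 (adjusted p 0.0025), and did not pass at 36 h, at -0.77 ± 0.27 (adjusted p 0.0502).

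The carnitine shuttle followed with smaller changes. Cpt1a (ENSMUSG00000024900, chr19:3322334-3385733), whose product controls the entry of long-chain acyl groups into mitochondria, measured 107, 144 and 119.8 CPM at 0 h, 53.9 and 62.3 at 24 h, 98.7 and 144 at 36 h, then 80.04, 55.1, 61.03 and 80.2 at 48 h. The 24 h and 48 h sections lay below 0 h, while 36 h A lay just below the 0 h range and 36 h B within it. The log2 fold change was -1.09 ± 0.22 (adjusted p 0.0027) at 24 h, -0.03 (adjusted p 0.93) at 36 h and -0.84 ± 0.18 (adjusted p 0.0031) at 48 h. Slc25a20, the carrier that exchanges acylcarnitine for carnitine across the inner membrane, measured 56.8, 53.1 and 47.1 CPM at 0 h, 21.5 and 21.95 at 24 h, 30.5 and 42.3 at 36 h, then 27.6, 25.9, 23.7 and 30.7 at 48 h. All injured sections were lower than all 0 h sections, and its log2 fold changes were -1.27 ± 0.16 (adjusted p 1.99e-04), -0.52 ± 0.15 (adjusted p 0.028) and -0.96 ± 0.13 (adjusted p 2.29e-04), that at 36 h being 0.06 under hepatocyte-marker scaling. Cpt2, which hands the acyl group back to CoA in the matrix, measured 158, 167 and 177 CPM at 0 h, 97.9 and 84.96 at 24 h, 114 and 96.6 at 36 h, then 86.5, 85.01, 53.6 and 88.9 at 48 h. It was lower in every injured section, lowest in 48 h C, at -0.87 ± 0.20 (adjusted p 0.0057), -0.66 ± 0.20 (adjusted p 0.0297) and -1.09 ± 0.16 (adjusted p 4.41e-04). Crat, the acetyl-carnitine transferase, passed only at 48 h, at -0.54 ± 0.16 (adjusted p 0.0203), and by TMM alone, with 0.18 under hepatocyte-marker scaling.

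Among the dehydrogenases that open each round, Acadm, the medium-chain enzyme, measured 232, 203 and 174 CPM at 0 h, 101 and 118 at 24 h, 158 and 185 at 36 h, then 191, 141, 106 and 113 at 48 h. Section 24 h A was lowest, and 36 h B and 48 h A fell inside the 0 h range while the other injured sections lay below it. The log2 fold change was -0.89 ± 0.24 (adjusted p 0.012) at 24 h and -0.56 ± 0.19 (adjusted p 0.035) at 48 h, the latter 0.14 under hepatocyte-marker scaling. Acadvl, for very long chains, measured 323, 324 and 315 CPM at 0 h, 250.1 and 258 at 24 h, 265 and 268 at 36 h, then 222, 179.8, 168 and 190.4 at 48 h. Sections within each time point were close, all injured ones lay below 0 h and those at 48 h were lowest. The change was -0.34 ± 0.12 (adjusted p 0.049) at 24 h, -0.27 (adjusted p 0.13) at 36 h and -0.75 ± 0.10 (adjusted p 2.56e-04) at 48 h, but at 24 h it was 0.44 and called higher under hepatocyte-marker scaling. Acadl and Acads, for long and short chains, were lower at 24 h and 48 h by TMM, with log2 fold changes from -0.44 to -0.43 at 24 h and from -0.60 to -0.43 at 48 h, and did not pass at 36 h, and under hepatocyte-marker scaling Acads lay above 0 at both times. Acadl rose instead under hepatocyte-marker scaling, by 0.35 at 24 h.

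The later steps of the mitochondrial round gave a like picture. Hadha, the alpha subunit of the trifunctional protein, measured 241, 246 and 242 CPM at 0 h, 178 and 153 at 24 h, 161 and 188 at 36 h, then 149, 125, 112 and 151 at 48 h. The 0 h sections were nearly equal and lay above all injured sections. Its log2 fold change was -0.56 ± 0.15 (adjusted p 0.012), -0.48 ± 0.15 (adjusted p 0.033) and -0.86 ± 0.12 (adjusted p 3.42e-04) at the 3 times, and 0.22 and 0.11 at 24 h and 36 h under hepatocyte-marker scaling. Hadhb, which encodes the beta subunit and starts 86 bases from Hadha on the other strand, was lower at all 3 times, at -0.85, -0.70 and -0.84. Acaa2, the thiolase that ends the round, measured 861, 941 and 925 CPM at 0 h, 638 and 554 at 24 h, 697 and 712 at 36 h, then 519, 482, 385 and 515 at 48 h. All injured sections were lower and those at 48 h lowest, with -0.61 ± 0.14 (adjusted p 0.0063) at 24 h (0.17 under hepatocyte-marker scaling) and -0.94 ± 0.12 (adjusted p 1.65e-04) at 48 h, and -0.37 (adjusted p 0.073) at 36 h. Hadh, the short-chain hydroxyacyl-CoA dehydrogenase, was at -0.66 and -0.59 at 24 h and 48 h, called by TMM alone, and at 0.13 and 0.13 under hepatocyte-marker scaling.

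The 4 enzymes for unsaturated fatty acids had a median log2 fold change of -1.19 at 24 h and -1.31 at 48 h, against -0.44 and -0.58 for the 4 acyl-CoA dehydrogenases. Decr2, the peroxisomal 2,4-dienoyl-CoA reductase, measured 109.8, 125 and 100.2 CPM at 0 h, 28.8 and 23.8 at 24 h, 69.7 and 41.4 at 36 h, then 40.2, 36.3, 33.5 and 47.3 at 48 h. No injured section came near the 0 h range, and the changes were -2.09 ± 0.23 (adjusted p 1.06e-04), -1.01 ± 0.22 (adjusted p 0.0078) and -1.50 ± 0.18 (adjusted p 1.25e-04). Eci1 and Eci2, enoyl-CoA isomerases, measured 181, 164 and 141 CPM at 0 h, 84.8 and 68.9 at 24 h, 92.8 and 83.01 at 36 h, then 70.1, 67.9, 58.6 and 73.3 at 48 h for Eci1, and 172, 199 and 172 CPM at 0 h, 64.7 and 81.1 at 24 h, 98.4 and 121 at 36 h, then 65.1, 57.3, 58.1 and 103 at 48 h for Eci2. Both were below their 0 h range in all 8 injured sections. Eci1 changed by -1.07 ± 0.15 (adjusted p 3.57e-04), -0.88 ± 0.15 (adjusted p 0.0024) and -1.26 ± 0.12 (adjusted p 4.36e-05), and Eci2 by -1.31 ± 0.25, -0.72 ± 0.24 and -1.35 ± 0.20, also called at each time. Decr1, the mitochondrial reductase, measured 156, 159 and 155 CPM at 0 h, 87.96 and 78.01 at 24 h, 132 and 105 at 36 h, then 94.7, 65.7, 58.1 and 76.8 at 48 h. It was lower in all injured sections, called at 24 h (-0.92 ± 0.19) and 48 h (-1.08 ± 0.15).

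Electrons from these dehydrogenases pass to the electron transfer flavoprotein, of subunits Etfa and Etfb, and from there through Etfdh to ubiquinone. Etfdh (ENSMUSG00000027809, chr3:79603788-79629500) measured 166, 155 and 138 CPM at 0 h, 52.2 and 52.6 at 24 h, 56.5 and 69.1 at 36 h, then 71.2, 73.8, 54.99 and 70.4 at 48 h. All injured sections lay close together and far below the lowest 0 h section, and Etfdh was lower at every time under all 3 scalings, by TMM at -1.55 ± 0.15 (adjusted p 6.34e-05), -1.29 ± 0.15 (adjusted p 5.31e-04) and -1.18 ± 0.12 (adjusted p 6.13e-05). Etfa measured 351, 320.3 and 294 CPM at 0 h, 114 and 101 at 24 h, 158 and 203 at 36 h, then 209, 185, 158 and 172 at 48 h. It was lowest at 24 h and intermediate afterwards, at -1.58 ± 0.16 (adjusted p 7.19e-05), -0.83 ± 0.16 (adjusted p 0.0038) and -0.83 ± 0.13 (adjusted p 5.04e-04). Etfb differed from its partner, at -0.40, -0.38 and -0.58 by TMM, called lower at each time, and 0.38 at 24 h and called higher under hepatocyte-marker scaling.

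In the peroxisome, Ehhadh (ENSMUSG00000022853, chr16:21761287-21787807), the bifunctional enzyme that hydrates and then oxidizes the acyl-CoA, had the largest fall of the 35 at 24 h. It measured 155, 153 and 154 CPM at 0 h, 15.7 and 11.3 at 24 h, 56.2 and 27.3 at 36 h, then 61.3, 48.4, 32.5 and 73.5 at 48 h. The 0 h sections were nearly equal, the 24 h sections lay about an order of magnitude lower, and those at 36 h and 48 h lay between. The log2 fold change was -3.51 ± 0.40 (adjusted p 1.55e-04) at 24 h, -1.88 ± 0.37 (adjusted p 0.0053) at 36 h and -1.51 ± 0.29 (adjusted p 0.0021) at 48 h, and it was called lower under all 3 scalings. The peroxisomal thiolases Acaa1a and Acaa1b went apart. Acaa1b measured 1481, 1693 and 1019.9 CPM at 0 h, 249 and 203 at 24 h, 959 and 142 at 36 h, then 218, 179, 127 and 314 at 48 h, whereas Acaa1a measured 235, 236 and 213 CPM at 0 h, 182 and 167 at 24 h, 261 and 200.4 at 36 h, then 166, 149, 135 and 144 at 48 h. For Acaa1b, 36 h A stood near the lowest 0 h section while the other 7 injured sections lay well below, and for Acaa1a, 36 h A lay above all 0 h sections. The log2 fold changes of Acaa1b were -2.63 ± 0.70 (adjusted p 0.014), -1.35 ± 0.66 (adjusted p 0.15) and -2.74 ± 0.54 (adjusted p 0.0029). Those of Acaa1a were -0.39 ± 0.14 (adjusted p 0.044), 0.01 ± 0.14 (adjusted p 0.95) and -0.62 ± 0.11 (adjusted p 0.0015), and 0.39 at 24 h, called higher, under hepatocyte-marker scaling. The thiolases shared 42.5% (of Acaa1a) and 45.3% (of Acaa1b) of the 31-base words in the last 500 bases of their transcripts, so how reads were split between them is uncertain. Pex11a, a factor of peroxisome division, measured 37.7, 41.4 and 31.6 CPM at 0 h, 21.6 and 28.6 at 24 h, 28.97 and 31.8 at 36 h, then 20.5, 14.7, 14.4 and 17.9 at 48 h. Only 36 h B overlapped the 0 h range, and the change was -0.56 ± 0.19 (adjusted p 0.032) at 24 h, where hepatocyte-marker scaling gave 0.22, and -1.13 ± 0.15 (adjusted p 2.48e-04) at 48 h.

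The omega-hydroxylases Cyp4a10 and Cyp4a14, neighbours on chromosome 4 at a distance of 22122 bases, stood above 0 h on average at 24 h, without passing the test. Cyp4a14 (ENSMUSG00000028715, chr4:115486200-115496142) measured 53.2, 76.1 and 8.39 CPM at 0 h, 138 and 138 at 24 h, 29.6 and 118 at 36 h, then 189, 27.5, 25.8 and 13.2 at 48 h. The 24 h sections were nearly equal and lay above all 0 h sections, but the sections differed by 9.07 times at 0 h and 14.4 times at 48 h, with 0 h 4 and 48 h A apart from the rest of their groups. No change of Cyp4a14 passed the test, at 1.59 ± 1.14 (adjusted p 0.29), 0.68 ± 1.14 (adjusted p 0.68) and 0.48 ± 0.98 (adjusted p 0.72). Cyp4a10 measured 108, 97.7 and 28.2 CPM at 0 h, 119 and 103 at 24 h, 11.9 and 50.1 at 36 h, then 43.5, 7.15, 8.26 and 9.43 at 48 h. Its 24 h sections overlapped 0 h, and 3 of 4 sections at 48 h lay below every other section. Cyp4a10 was called at 48 h, at -2.19 ± 0.75 (adjusted p 0.038), by TMM alone, and not at 24 h, at 0.51 ± 0.87 (adjusted p 0.67).

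Acyl-CoA thioesterases free the fatty acid from CoA, and Acot1, Acot4 and Acot3 lie side by side on chromosome 12. Acot1 (ENSMUSG00000072949, chr12:84009490-84018371), the cytosolic enzyme, measured 36.01, 39.3 and 20.02 CPM at 0 h, 5.10 and 6.89 at 24 h, 4.87 and 8.65 at 36 h, then 5.53, 6.60, 7.72 and 10.6 at 48 h. Every injured section lay below the lowest 0 h section, and the change held under all 3 scalings, by TMM at -2.42 ± 0.38 (adjusted p 8.91e-04), -2.24 ± 0.38 (adjusted p 0.0028) and -2.06 ± 0.29 (adjusted p 3.93e-04). Acot3, at under 3 CPM, measured 1.80, 1.64 and 0.367 CPM at 0 h, 0.237 and 0.383 at 24 h, 2.14 and 2.05 at 36 h, then 1.06, 2.56, 0.459 and 0.679 at 48 h and did not pass at any time, and neither did Acot4, at -0.84, 0.14 and -0.31. Vnn1, the pantetheinase that recycles a breakdown product of CoA, measured 29.9, 33.02 and 20.3 CPM at 0 h, 15.1 and 5.97 at 24 h, 11.7 and 5.51 at 36 h, then 5.43, 5.05, 4.09 and 8.42 at 48 h. It was lower in all 8 injured sections, with 48 h C lowest and 24 h A highest among them, at -1.39 ± 0.45 (adjusted p 0.032), -1.69 ± 0.46 (adjusted p 0.022) and -2.27 ± 0.37 (adjusted p 8.55e-04).

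Bdh1, which reduces acetoacetate to the main circulating ketone body, measured 143, 143 and 145 CPM at 0 h, 132 and 78.8 at 24 h, 109.9 and 99.9 at 36 h, then 98.2, 92.4, 68.2 and 126 at 48 h. The 0 h sections were nearly equal and above all injured sections, which spread widely. The change passed at 48 h, at -0.58 ± 0.20 (adjusted p 0.039), and not at 24 h, at -0.45 ± 0.25 (adjusted p 0.17), and at 48 h it was 0.13 under hepatocyte-marker scaling.

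**Figure D2:**
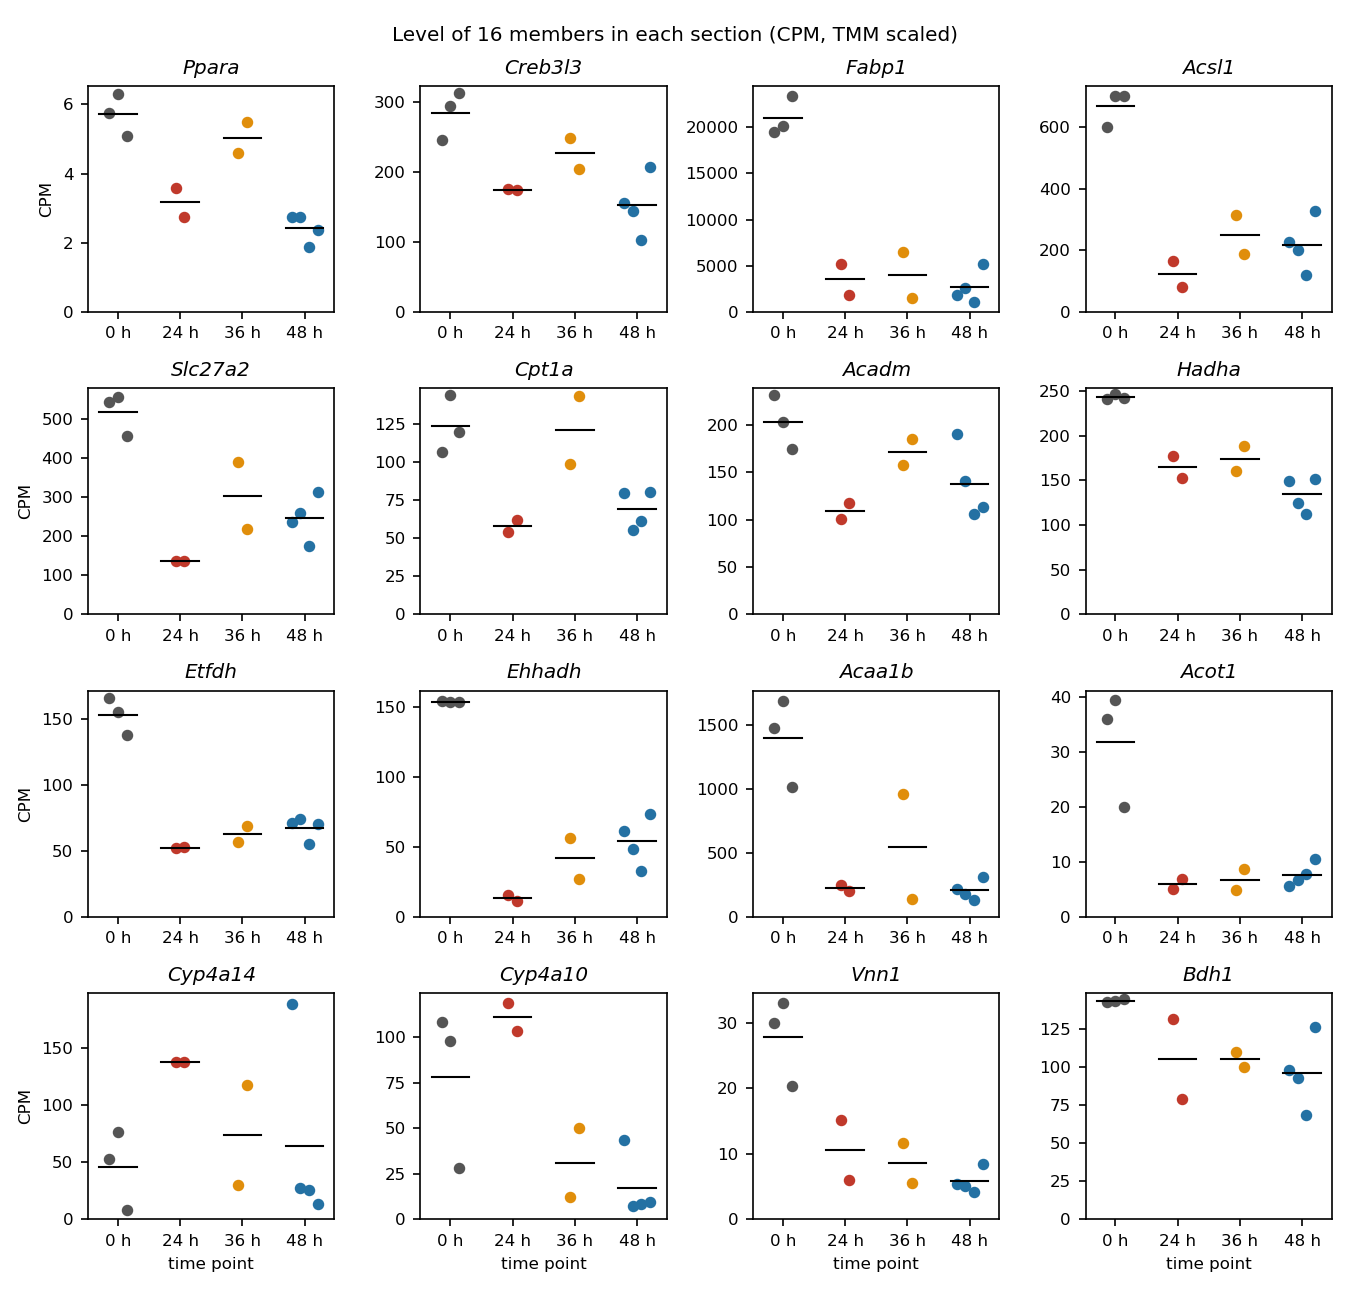
CPM of 16 members (vertical axes, each from 0) in every section by time point (horizontal axes), with a point per section and a line at the group mean. Etfdh and Acot1 were low in all 8 injured sections, Ehhadh was lowest at 24 h, and Cyp4a14 had both 24 h sections above all 0 h sections and a lone high section, 48 h A, at 189 CPM.

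The second question was how the module moved between injured time points. From 24 h to 36 h, 6 members rose and 0 fell, against 7.04% and 8.58% of all genes (15.6% in all), with a median log2 difference of 0.30 against 0.02 for all genes. The 6 were Ehhadh (1.62 ± 0.39, adjusted p 0.024), Slc27a2 (1.16 ± 0.29), Decr2 (1.08 ± 0.24), Cpt1a (1.06 ± 0.23), Etfa (0.75 ± 0.17) and Slc25a20 (0.74 ± 0.17), and each was called under all 3 scalings. In each of them both 36 h sections lay above both 24 h sections. DESeq2 gave 9 higher and 0 lower, an unadjusted p under 0.05 gave 15 and 0, and edgeR gave 0 when 24 h A was left out, when 24 h B was, or with only those 2 groups in the fit. From 36 h to 48 h, 5 members fell and 0 rose, against 1.43% and 1.62% of all genes (3.05% in all), with a median of -0.43 against -0.01. They were Ppara (-1.06 ± 0.19, adjusted p 0.023), Pex11a (-0.85 ± 0.17), Acaa1a (-0.64 ± 0.13), Acaa2 (-0.57 ± 0.13) and Acadvl (-0.49 ± 0.11), of which Ppara and Pex11a were called under all 3 scalings. In all 5 the 48 h sections lay below both 36 h sections. This count was unstable. DESeq2 gave 7 lower and 0 higher and an unadjusted p under 0.05 gave 17 and 0. With a section left out, edgeR gave 0 when it was 48 h B or 48 h C, 1 when it was 0 h 2, and 2 when it was 0 h 3, 0 h 4, section A of 36 h or section D of 48 h. It gave 3 when it was 24 h A or 24 h B and 8 when it was 48 h A. The 36 h sections also stood apart in the circadian clock, whose 16 listed genes gave 7 higher and 3 lower than at 24 h and then 2 higher and 7 lower at 48 h, among them Ciart at 4.35 and -4.32 and Dbp at 3.69 and -2.36. Its part in the members' changes was not tested.

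The third question was where in the lobule the members were read. Spots were scored for 12 portal markers (Hal, Sds and Cyp2f2 among them, none of them a member), spots poor in hepatocyte markers were left out, and UMIs were summed over the fifth of the spots with the highest score, called portal-rich, and the fifth with the lowest, called portal-poor. At 0 h the portal-rich sums held 2409 to 3405 CPM of 12 central markers and the portal-poor sums 9757 to 12287 CPM, so the classes ran along the lobule. In uninjured liver 23 members were lower in portal-rich spots and 1, Creb3l3, was higher, against 8.64% and 8.96% (17.6% in all) of the 12975 genes tested with edgeR's quasi-likelihood test and the section as a block. The members' median was -0.25 and that of all genes -0.00. All 23 were called lower under all 3 scalings, whereas Creb3l3 was at 0.22 by TMM and -0.08 under hepatocyte-marker scaling. Leaving out a section changed the count of 24 to between 17 and 26.

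The omega-oxidation, thioesterase and peroxisomal genes had the steepest slopes at 0 h. Cyp4a14 was steepest, with 19.1, 34.1 and 4.68 CPM in portal-rich and 98.0, 138 and 13.2 CPM in portal-poor spots of the 3 sections. Acot1 held 16.4, 18.8 and 8.63 CPM in portal-rich against 58.5, 65.2 and 33.8 CPM in portal-poor spots, and Cyp4a10 53.03, 46.4 and 16.9 against 188, 179 and 47.4 CPM. Acot3 held 0.629, 1.18 and 0.123 against 2.53, 1.95 and 0.362 CPM. In each of these genes every section was higher in its portal-poor spots, although 0 h 4 held less of all 4 than the other sections did. The log2 differences were -2.10 ± 0.20 (adjusted p 1.72e-04) for Cyp4a14, -1.84 ± 0.09 (adjusted p 9.47e-20) for Acot1, -1.83 ± 0.06 (adjusted p 6.98e-27) for Cyp4a10 and -1.25 ± 0.39 (adjusted p 0.017) for Acot3. Vnn1 (-1.20 ± 0.08), Acaa1b (-1.06 ± 0.11), Eci2 (-0.79 ± 0.05), Pex11a (-0.77 ± 0.07) and Ppara itself (-0.77 ± 0.20) came next and were also called. The values of Acot3 rest on few UMIs. The SEs and p-values of zone differences draw on a spread shared over genes. They can be smaller than the 3 sections alone would give. Acot4, Acaa1a and Ehhadh, the other thioesterase and peroxisomal genes, were called too, at -0.62, -0.47 and -0.32.

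Enzymes of the mitochondrial round had little slope at 0 h. The 4 acyl-CoA dehydrogenases had a median of -0.09 with 1, Acadl, called, the 3 electron transfer genes a median of -0.10 with 0 called, and the 4 genes of the later steps a median of -0.12 with 2, Hadh and Hadhb, called. Cpt1a held 98.9, 140.3 and 108 CPM in portal-rich and 108, 137 and 119 CPM in portal-poor spots, with no common direction over the sections. Acadm held 213, 189 and 155 against 236, 199 and 161 CPM and Hadha 225, 229 and 229 against 247, 247 and 239.7 CPM. Both were slightly lower in the portal-rich spots of each section and not called, at -0.09 ± 0.05 (adjusted p 0.18) and -0.11 ± 0.04 (adjusted p 0.0901). Bdh1 held 129.8, 124 and 124 against 152, 159 and 158 CPM, lower in portal-rich spots at -0.31 ± 0.05 (adjusted p 2.11e-06). Creb3l3 ran the other way, with 254, 315 and 324 against 221, 268 and 277 CPM.

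Read over 5 classes of spots from the lowest to the highest portal score, Acot1, Acaa1b, Vnn1, Eci1 and Eci2 fell at each step in all 3 sections at 0 h. The lowest class held 5.34, 4.15 and 2.96 times the Cyp4a14 of the highest in sections 2, 3 and 4, 3.71, 3.56 and 4.13 times the Acot1 and 2.42, 2.09 and 2.02 times the Acaa1b, per UMI of the class. For Acaa1b the ratio was 2.36 and 2.60 at 24 h, 0.818 and 1.38 at 36 h and 0.871, 0.795, 0.766 and 0.895 at 48 h. It was thus above 1 in both 24 h sections, on either side of 1 in the 36 h sections and below 1 in all 4 at 48 h. Creb3l3 rose at each step in 6 of the 8 injured sections, all those at 36 h and 48 h.

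**Figure D3:**
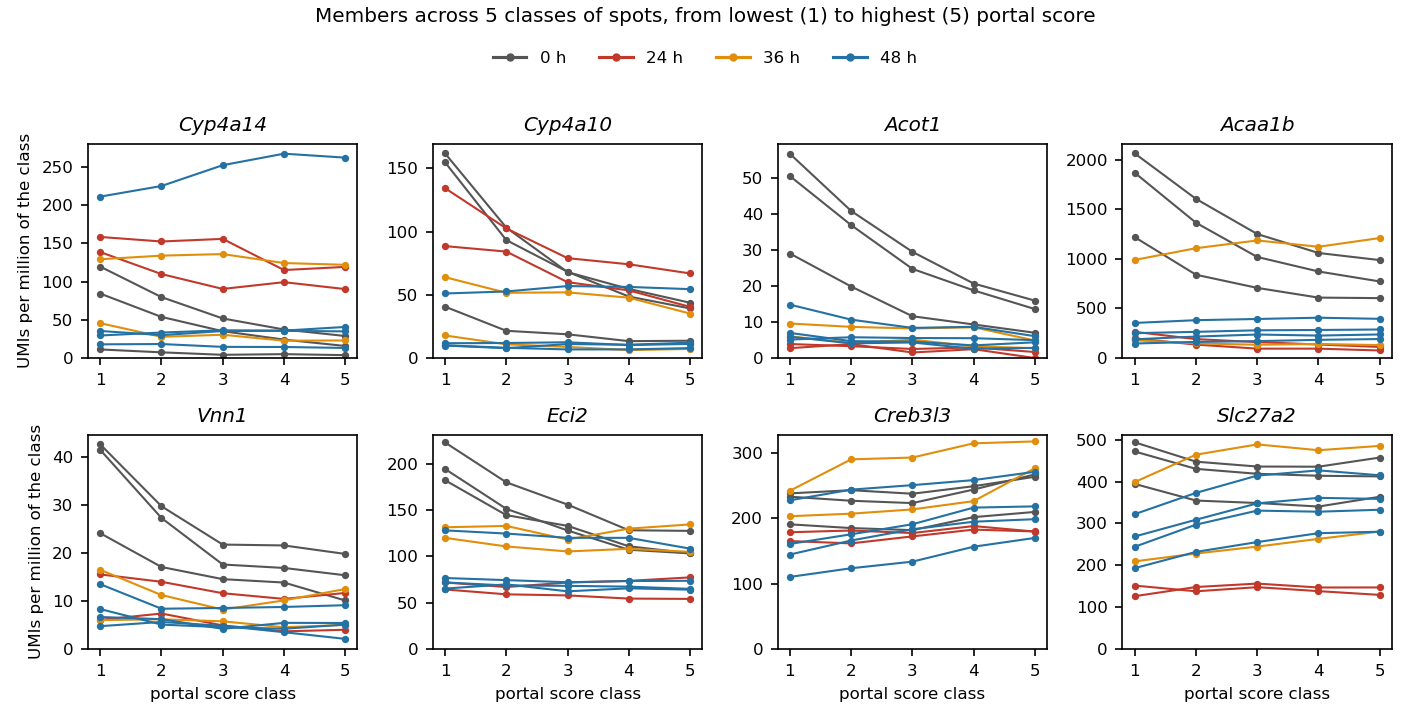
UMIs of 8 members per 1000000 UMIs of the class (vertical axes) over 5 classes of spots of increasing portal score (horizontal axes), with a line per section coloured by time point. Cyp4a10, Acot1, Vnn1 and Eci2 sloped down at 0 h and were flatter at 48 h, while Creb3l3 and Slc27a2 sloped up at 48 h.

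After injury the slope changed. The change was tested as the difference between the zone difference at a time point and that at 0 h. It depends less on the scaling than the zone difference itself. The classes are ranks within a section. In portal-poor spots the central markers summed to 1263 to 2539 CPM at 24 h and 2190 to 3268 at 36 h. They reached 3067 to 3728 at 48 h, against 9757 to 12287 at 0 h. Portal-poor spots thus need not be the same tissue at each time. A member that moved is one whose zone difference changed. At 24 h, 7 members had moved towards portal-rich spots and 0 away, against 1.5% and 1.07% of all genes (2.57% in all), with a median of 0.24. They were Cyp4a14 (1.74 ± 0.31, adjusted p 0.033), Acot4 (1.42 ± 0.30), Cyp4a10 (0.91 ± 0.12), Eci2 (0.84 ± 0.12), Acaa1a (0.49 ± 0.09), Bdh1 (0.43 ± 0.10) and Fabp1 (0.25 ± 0.07), all but Fabp1 under all 3 scalings. The count was 4 if either 24 h section was left out, 17 with spots thinned to 2000 UMIs for scoring, and 25 with the hepatocyte-poor spots kept, which were 54.3% to 56.4% of the scored spots at 24 h. None moved away under these last settings. At 36 h, 29 members had moved towards portal-rich spots and 0 away, against 7.75% and 5.44% of all genes (13.2% in all), with a median of 0.49, and 22 were called under all 3 scalings. At 48 h, 33 had moved and 0 away, against 14.9% and 11.8% (26.7% in all), with a median of 0.59, and 27 were called under all 3 scalings. Ppara and Bdh1 were the 2 not called, at 0.73 ± 0.31 (adjusted p 0.0797) and 0.15 ± 0.07 (adjusted p 0.104). At an unadjusted p under 0.05 the counts were 19, 34 and 35 towards portal-rich spots and 0 away at each time. The medians over all genes were -0.00, 0.01 and -0.01. The shift was not confined to the members. Of 12 central markers, 10 were called in the same direction at 36 h and 9 at 48 h, with medians of 1.19 and 0.86. None went the other way. Hepatocyte markers gave 4 of 8 at 36 h and 5 at 48 h, with 1 and 2 the other way. Of 41 further pathway genes tested, 21 and 25 did so, with 3 and 5 the other way. Of 6 myofibroblast markers, 5 were called away from portal-rich spots at both times.

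The largest changes of slope at 48 h were those of Cyp4a14 and Cyp4a10, which were also steep at 0 h, and both statements use the 0 h sections. At 48 h Cyp4a14 held 256, 34.2, 40.1 and 12.9 CPM in portal-rich and 175, 29.3, 25.9 and 15.01 CPM in portal-poor spots, and Cyp4a10 53.2, 7.70, 11.98 and 10.9 against 42.2, 8.33, 8.67 and 9.80 CPM. Portal-rich spots held more Cyp4a14 in sections A, B and C and more Cyp4a10 in A, C and D, and the change of slope was 2.53 ± 0.26 (adjusted p 1.93e-04) for Cyp4a14 and 2.10 ± 0.11 (adjusted p 4.87e-19) for Cyp4a10. Acaa1b held 281, 233, 189 and 386 against 207, 156, 129 and 296 CPM, higher in the portal-rich spots of all 4 sections, with a change of slope of 1.54 ± 0.15 (adjusted p 1.33e-04). Acot3 (1.73 ± 0.51), Acot1 (1.17 ± 0.19), Pex11a (1.08 ± 0.11), Acot4 (0.98 ± 0.14) and Eci2 (0.88 ± 0.07) followed. By role, the smallest changes were those of the 4 acyl-CoA dehydrogenases, with a median of 0.33, and of Bdh1, at 0.15. At 24 h Acaa1b kept its slope, with 115 and 83.7 CPM in portal-rich and 247 and 199 CPM in portal-poor spots, lower in the portal-rich spots of both sections at -1.17 ± 0.20 (adjusted p 0.016).

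The zone difference within an injured time point depended on the scaling. By TMM, 1 member was higher and 2 lower in portal-rich spots at 24 h (2.57% and 1.91% of all genes, 4.48% together), 14 higher and 2 lower at 36 h (9.16% and 6.82%, 16% together), and 25 higher and 3 lower at 48 h (19.9% and 21.1%, 41% together). At 24 h it was 0 higher and 3 lower by total UMIs, 0 and 17 by hepatocyte-marker UMIs, 15 and 4 with the hepatocyte-poor spots kept, and 7 and 3 with spots thinned to 2000 UMIs for scoring. By total UMIs it was 6 higher and 5 lower at 36 h and 13 higher and 6 lower at 48 h, and by hepatocyte-marker UMIs 2 higher and 17 lower at 36 h and 2 higher and 16 lower at 48 h. Shares of all genes are given here for TMM alone, so the counts under other settings lack a baseline. Hepatocyte markers were themselves higher in portal-rich than portal-poor spots at every time, at 127911 to 146519 against 99858 to 104351 CPM at 48 h, and myofibroblast markers at 48 h were lower, at 203 to 499 against 417 to 1193 CPM. Their part in the members' zone differences was not tested. Under all 3 scalings Creb3l3 and Ehhadh were higher in portal-rich spots and Cyp4a10 and Acot1 lower at 36 h. At 48 h Creb3l3 and Slc27a2 were higher and Acot1, Vnn1 and Bdh1 lower under all 3. At 48 h Slc27a2 held 325, 351, 276 and 405 CPM in portal-rich and 202, 222, 169 and 269 CPM in portal-poor spots, Creb3l3 213, 194, 167 and 264 against 133, 119, 96.6 and 189.9 CPM, and Bdh1 98.5, 95.3, 74.4 and 125 against 111, 104, 85.9 and 139.7 CPM. Each of these differed in the same direction in all 4 sections, at 0.66 ± 0.04 (adjusted p 1.80e-17), 0.65 ± 0.04 (adjusted p 5.25e-18) and -0.17 ± 0.05 (adjusted p 0.0026). Without 24 h A the 24 h count was 1 of 35, and without 36 h B the 36 h count was 9.

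**Figure D4:**
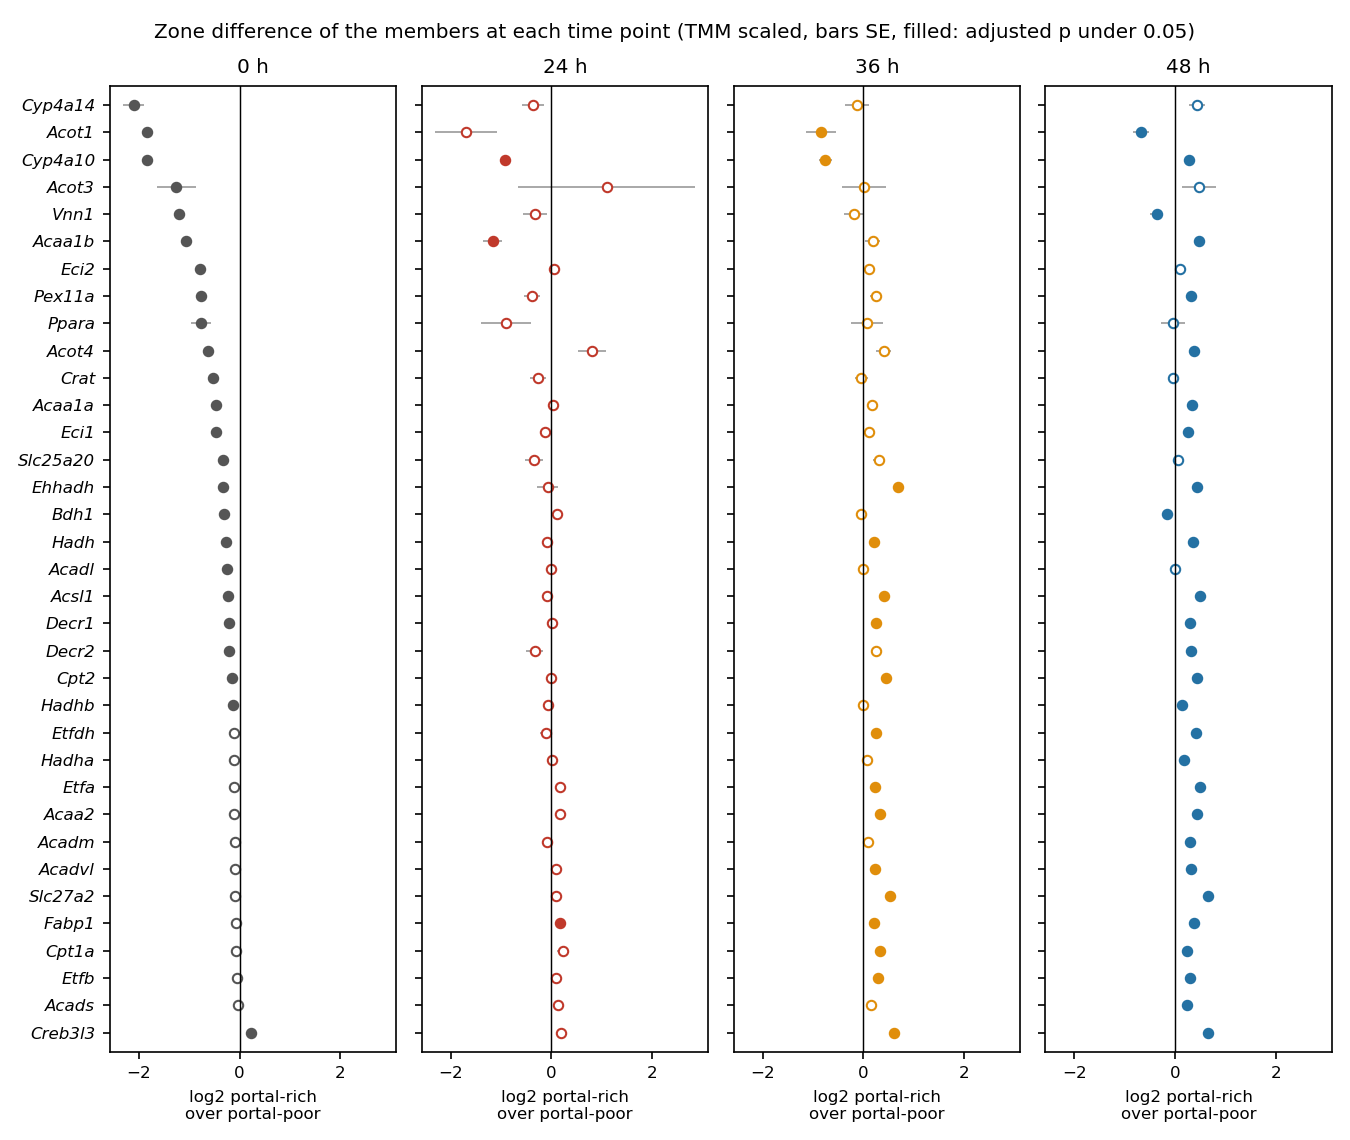
Log2 difference between portal-rich and portal-poor spots (horizontal axes, TMM scaled, bars SE) for the 35 members (vertical axis) at the 4 time points, filled where the adjusted p was under 0.05. The members at the top, led by Cyp4a14, Acot1 and Cyp4a10, lay left of 0 at 0 h, and most members lay right of 0 at 48 h, with Acot1, Vnn1 and Bdh1 called to the left, although under hepatocyte-marker scaling 16 members were called to the left and 2 to the right at 48 h.

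Spots poor in hepatocyte markers were few at 0 h, at 0.104% to 2.83% of the scored spots, and made up 54.3% to 56.4% at 24 h, 14.2% to 16.2% at 36 h and 15.2% to 30.7% at 48 h. In these spots 12 members had fewer UMIs per 1000000 than in the other spots of the section in all 8 injured sections (Creb3l3, Slc27a2, Fabp1, Hadh, Acaa2, Decr1, Etfa, Etfb, Etfdh, Ehhadh, Acot4 and Bdh1), with medians from -0.10 for Bdh1 to -0.97 for Slc27a2 on the log2 scale. Acot1 ran against this, higher in the hepatocyte-poor spots of all 8 sections, by 0.92 to 2.45 with a median of 1.61. Crat was higher in all 8 too, by 0.05 to 0.57, and Vnn1 in 7. These are differences between spots of a section, given as a description. Some were near 0 at 24 h, as for Decr1 (-6.98e-04) and Ehhadh (-0.0036) in section 24 h B and Hadh (-0.0093) in 24 h A. The spots were picked for low hepatocyte markers, so low values of hepatocyte genes are partly built in. The share of all genes lower in every injured section is not given here. On the array, Acaa1b in section 0 h 3 was high in small patches of neighbouring spots, and more of them stood towards the left and lower edges as drawn.

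**Figure D5:**
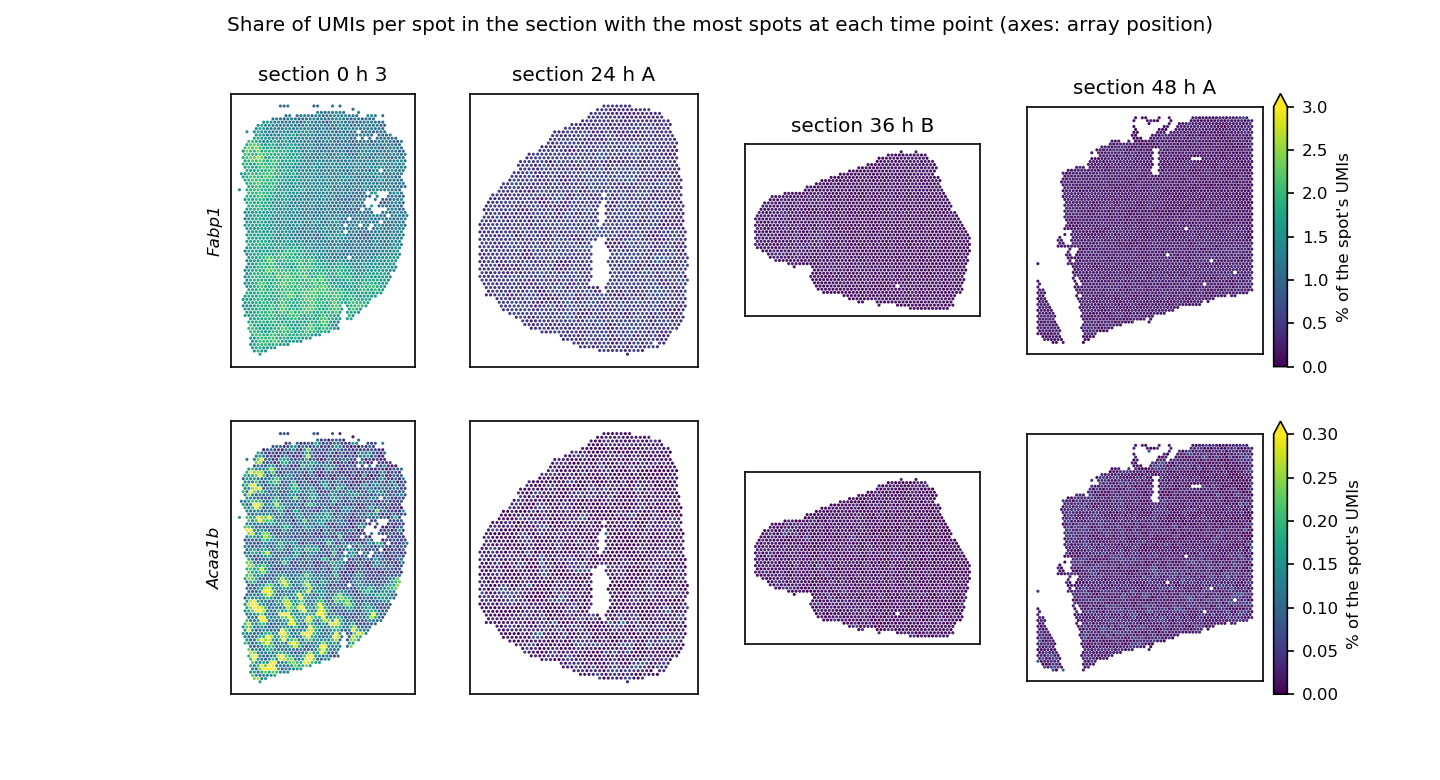
Share of each spot's UMIs (colour, percent, per gene on a common scale) taken by Fabp1 and Acaa1b in the section with the most passing spots at each time point, with spots at their array positions. Acaa1b stood in patches at 0 h, and both genes were lower over the area of the 3 injured sections drawn, of which 36 h B held 142 CPM of Acaa1b against 959 CPM in 36 h A, not drawn.

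Further genes of the pathway, 45 listed and 44 tested, were fitted with the members. At 24 h 26 were lower and 2 higher, with a median of -1.004, at 36 h 19 and 4, with a median of -0.42, and at 48 h 29 and 3, with a median of -0.69. From 24 h to 36 h 10 rose and 0 fell. Of all genes, 18.6%, 12.4% and 20.9% were called lower and 23.1%, 16.8% and 23.3% higher at 24, 36 and 48 h. From 24 h to 36 h, 7.04% of all genes rose and 8.58% fell. These calls are by TMM, and other scalings of this list are not given here. The deepest falls were in the omega-hydroxylases Cyp4a12a and Cyp4a12b. Cyp4a12b measured 48.2, 54.7 and 51.7 CPM at 0 h, 2.02 and 2.27 at 24 h, 3.36 and 0.400 at 36 h, then 2.06, 0.624, 1.15 and 2.99 at 48 h. All injured sections were far below the 0 h sections, and the changes were -4.59 ± 0.75 (adjusted p 0.0012), -4.78 ± 0.77 (adjusted p 0.0025) and -4.89 ± 0.56 (adjusted p 1.58e-04). Cyp4a12a changed by -3.31 ± 0.62, -3.37 ± 0.62 and -4.86 ± 0.50, and Abcd3, a peroxisomal fatty acid transporter, by -2.38 ± 0.25, -1.64 ± 0.25 and -1.81 ± 0.19, called at each time. Acot5, a peroxisomal thioesterase called higher at 24 h, was at 0 in all 3 sections at 0 h and below 1 CPM throughout.

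Of 20 genes of fasting and feeding, 5 were lower and 1 higher at 24 h, 3 and 1 at 36 h, and 13 and 0 at 48 h. Among all genes, 18.6% were called lower and 23.1% higher at 24 h. At 36 h these shares were 12.4% and 16.8%, and at 48 h they were 20.9% and 23.3%. Counts from the list were near or below the shares at 24 h and 36 h. Yet sections A and B differed widely at those times, so the counts do not show steady genes. In A against B, lipogenic Scd1 held 1723 against 272 CPM at 24 h and 3665 against 84.1 CPM at 36 h. Thrsp held 468 against 40.1 CPM at 24 h and 2033 against 109 CPM at 36 h. Like these, Fabp1 was higher in A at both times. Pck1 was lower in A, at 228 against 958 CPM at 24 h and 701 against 1319 CPM at 36 h. Whether sections A and B came from 1 mouse was not tested. Listed genes called lower at 48 h included genes of both states. Of fasting they were the gluconeogenic G6pc (-2.47 ± 0.63, adjusted p 0.0103) and Tat, which breaks down tyrosine (-1.11 ± 0.39, adjusted p 0.042). Of feeding they were the lipogenic Scd1 (-3.76 ± 0.99, adjusted p 0.012) and Thrsp (-2.79 ± 0.91, adjusted p 0.032), among others. These are examples and give neither a ranking nor a count by state. Lpin1, Acacb, Me1 and Elovl6 fell by a larger factor in CPM than Tat did. Acacb, for one, measured 73.6, 90.4 and 75.2 CPM at 0 h and 16.5, 8.05, 13.2 and 10.7 at 48 h. The 1 gene higher at 24 h was Cidec, a lipid droplet protein, at 2.499 (adjusted p 0.012), named after its value was seen. The part of the feeding state in the members' changes was not tested.

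Counts of some members rest on reads that could belong to another gene. Of the 31-base words in the last 500 bases of their transcripts, Etfb shared 62.9% (with Gm45233), Hadhb 41.96% (mostly with Gm13910), Decr2 20.3%, Eci2 15.9% (with Eci3), Cyp4a10 13.3% (with Cyp4a31) and Acot1 10.4% (with Acot2). Ehhadh shared 1.06% and Fabp1, Etfdh and Cyp4a14 none.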

How the data were processed

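Spatial libraries from 11 liver sections were analysed. The authors deposited raw UMI counts per gene and barcode, made with Space Ranger 1.0.0 on mm10 (Seurat 4.1.1 is also named), per the labels and the submitters' processing notes. Spots were used here if they held at least 800 genes and no more than 20% mitochondrial UMIs. UMI counts were summed per section, filtered with filterByExpr, scaled by TMM and fitted over all 4 time points with edgeR 4.0.16 (quasi-likelihood, Benjamini-Hochberg adjustment, threshold 0.05) in R 4.3.3. For zones, spots thinned to 5000 UMIs (seed 11) were scored for portal markers, spots whose hepatocyte score lay below percentile 1 of the 0 h spots were left out, and the highest and lowest of 5 equal classes were summed unthinned and fitted with the section as a block.

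The members and lists were chosen with earlier results of these data known. Values per section were given for members called with at least a 2-fold change against 0 h, called between adjacent times, among the 4 steepest zone differences at 0 h, and for Ppara, Creb3l3, Cpt1a, Acadm, Hadha and Bdh1. From other lists up to 4 called genes were named, with Cidec added to those of fasting and feeding. In that list the named genes were not those with the largest changes throughout. Alternatives were total-UMI scaling, DESeq2 1.42.0, no low-count filter, other spot choices, 2000 UMIs, 3 classes, single sections left out and a replicate block (limma 3.58.1 was loaded with edgeR). Scaling by hepatocyte markers and an injured-only fit were added after seeing the data. The main time fit, for each of its contrasts, and the zone fit, for the 0 h contrast alone, were tested on simulated data. The other zone contrasts, the changes of slope and the alternatives were not. The p-values cover only the spread between sections, as edgeR estimates it with information shared over genes. The common coefficient of variation was 0.194 in the time fit and 0.0335 in the zone fit. In the zone fit, SEs and p-values can thus be smaller than a gene's own sections would give. The labels do not say what a section letter marks, so the letters were not used as pairs in the main fits.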

Additional observations from a re-analysis of the deposited data

Results flagged for a closer look

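At 48 h, the only time point with enough sections for the check, 1 section stood apart from the other 3 in 6 of the 35 members, judged by the gap to its nearest neighbour as a share of the group's range. The cutoff used gives about 1 such case in 20 for independent, normally distributed values. The members were read in the same sections and are not independent, so 6 of 35 cannot be set against that rate. The share was 0.937 for Cyp4a10 and 0.919 for Cyp4a14, both with section 48 h A highest, and 0.878 for Acads, with 48 h A again highest. It was 0.889 for Cpt2, with 48 h C lowest, and 0.835 for Crat and 0.831 for Eci2, both with 48 h D highest. The cause was not tested.

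The difference between portal-rich and portal-poor spots differed from that at 0 h for 7 members at 24 h, 29 at 36 h and 33 at 48 h, by the interaction test of edgeR, and all of these moved towards portal-rich spots. Central markers were called in the same direction too, 10 of 12 at 36 h and 9 at 48 h. Mouse and time point cannot be told apart in these comparisons.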

How the results depend on the processing

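Counts of members called moved as follows, and the cause was not tested. Shares of all genes called under these alternatives are not given here. Against 0 h, scaling by total UMIs gave 16, 7 and 20 at 24, 36 and 48 h, scaling by hepatocyte markers 14, 9 and 15, and portal-rich spots alone 16, 5 and 18. Leaving hepatocyte-poor spots out gave 9 at 36 h. For 36 h versus 24 h, fitting only those groups gave 0. For 48 h versus 36 h, total UMIs and hepatocyte markers gave 2 each, no low-count filter 3, leaving hepatocyte-poor spots out 1, and portal-rich spots alone or only those groups 0. Zone counts at 24 h were 10 with 2000 UMIs, 19 with hepatocyte-poor spots kept and 17 under hepatocyte-marker scaling, that at 36 h was 28 with those spots kept, and that at 48 h 18 under hepatocyte-marker scaling. The 24 h change of slope gave 17 with 2000 UMIs and 25 with hepatocyte-poor spots kept.

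With a replicate block by section letter, 36 h versus 24 h gave 0 and 48 h versus 36 h gave 0. Without the block, the injured sections alone gave 4 and 0. The labels do not say what a letter marks, and the deviations of same-lettered sections from their group means correlated at 0.287 for 24 and 36 h, at -0.124 and -0.122 for 24 and 48 h, and at 0.0736 and -0.241 for 36 and 48 h.

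With 1 section left out, counts ran from 15 to 29 (24 h), 7 to 17 (36 h) and 28 to 32 (48 h) against 0 h, 0 to 7 for 36 h versus 24 h, 0 to 8 for 48 h versus 36 h, 17 to 26, 1 to 4, 9 to 18 and 27 to 29 for zones at 0, 24, 36 and 48 h, and 4 to 8, 20 to 29 and 33 to 34 for the change of slope. A time point left with 1 section was assumed to vary like the others.

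Of the 227 member results called, alternatives kept direction and call in 3526 cases, lost the call in 473 and reversed the direction in 56. The reversed log2 values under total UMIs come first. For 36 h versus 0 h it was Etfb 0.054. For 48 h versus 0 h it was Acadl 0.092. For portal-rich versus portal-poor at 48 h they were Hadha -0.044 and Hadhb -0.086. The next was seen with hepatocyte-poor spots kept. For portal-rich versus portal-poor at 48 h it was Bdh1 0.30. The rest were seen under hepatocyte-marker scaling. For 24 h versus 0 h they were Creb3l3 0.073, Acadl 0.35, Acadvl 0.44, Acads 0.34, Hadha 0.22, Hadh 0.13, Acaa2 0.17, Etfb 0.38, Acaa1a 0.39 and Pex11a 0.22. For 36 h versus 0 h they were Slc25a20 0.061, Hadha 0.11 and Etfb 0.21. For 48 h versus 0 h they were Crat 0.18, Acadm 0.14, Acadl 0.28, Acads 0.11, Hadh 0.13, Etfb 0.13, Acaa1a 0.088 and Bdh1 0.13. For portal-rich versus portal-poor at 0 h it was Creb3l3 -0.076. For portal-rich versus portal-poor at 24 h it was Fabp1 -0.083. For portal-rich versus portal-poor at 36 h they were Fabp1 -0.18, Cpt1a -0.083, Acadvl -0.17, Hadh -0.18, Acaa2 -0.056, Decr1 -0.15, Etfa -0.18, Etfb -0.11 and Etfdh -0.15. For portal-rich versus portal-poor at 48 h they were Fabp1 -0.065, Cpt1a -0.19, Acadm -0.13, Acadvl -0.11, Acads -0.20, Hadha -0.26, Hadhb -0.30, Hadh -0.087, Acaa2 -0.0018, Decr1 -0.15, Decr2 -0.11, Eci1 -0.18, Etfb -0.14, Etfdh -0.026, Ehhadh -0.0027, Acaa1a -0.10, Pex11a -0.13, Cyp4a10 -0.19 and Acot4 -0.077.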
